A study of Mus musculus with 4 samples.

Results

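Gpr18, Gpr31b, Gpr34, Gpr65, Gpr84, Gpr85, Gpr157 and Gpr165 are 8 mouse genes of G protein-coupled receptors that are either orphans, with no settled ligand, or sensors of lipids, protons and other small metabolites. They were chosen by symbol from the Gpr genes of the count table, with their counts under LPS and control already known. The difference between LPS and control is therefore given for them as a description. Where a threshold or a call is named for them, it comes from the fit over all genes tested and is no independent evidence. The table holds 24148 genes, among them 66 other genes whose symbol is Gpr followed by a number. The 2 LPS libraries came from primary microglia in culture (microglia are the macrophages that reside in brain tissue), treated with 10 ng/ml of the bacterial outer membrane component lipopolysaccharide (LPS) for 4 h, and the 2 control libraries came from the same kind of culture without LPS. The cells were shaken off mixed glial cultures grown for 2 weeks, and the labels describe no sort, no strain and no age of animal. They also do not say whether the 2 libraries of a group came from separate cultures, so p-values measure the spread between these libraries, which may be technical.

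G protein-coupled receptors span the membrane and, once bound by a ligand, activate heterotrimeric G proteins that raise or lower second messengers such as cAMP. Arrestins and receptor kinases switch the receptors off, and Rgs proteins shorten the active state of the G protein. In microglia and other macrophages, receptors of this kind are known to tie migration, phagocytosis and cytokine release to lipids, protons and metabolites around the cell.

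Libraries held 5095630 and 4592474 counts with LPS, against 3617176 and 4080568 counts in control. Microglial marker genes summed to 2080 and 1760 CPM (counts scaled by library size) with LPS, against 3240 and 2480 CPM in control, with 11 of 12 markers detected and Itgam at 0 in all 4 libraries. Astrocyte markers (8 of 8 detected) summed to 131 and 443 CPM with LPS, against 115 and 312 CPM in control. Oligodendrocyte lineage markers summed to 417 and 47.6 CPM with LPS, against 403 and 56.0 CPM in control. Both sums differed more between the 2 libraries of a group than between LPS and control. The 8 neuronal markers summed to between 54.6 and 70.6 CPM in all libraries. Of these, Tubb3 alone was at 44.7 and 39.9 CPM with LPS, against 46.6 and 38.8 CPM in control. Lymphocyte markers (6 of 8 detected, Cd8a and Lck at 0) summed to between 3.38 and 17.5 CPM. Markers of neutrophils and monocytes (7 listed, 6 in the count table and 5 detected, S100a9 at 0) summed to 15.4 and 23.2 CPM with LPS, against 15.1 and 12.6 CPM in control. Fibroblast markers (5 of 6 detected, Pdgfrb at 0) summed to 39.2 and 64.8 CPM with LPS, against 26.0 and 41.7 CPM in control, and endothelial markers (4 of 6 detected, Pecam1 and Tek at 0) to 17.1 and 22.2 CPM with LPS, against 15.6 and 21.9 CPM in control. Genes listed under several accessions were more often at 0 in all libraries (30.2% of 4801) than genes with 1 accession (6.95% of 19347), and Itgam, Cd8a and Lck have several, so a 0 for them may not show that the RNA was absent. In bulk libraries, fewer cells of a type and less RNA per cell cannot be told apart.

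Stretches before the start of 4 of the genes that passed the threshold are shown first, because these are the regions that the motif search below reads. They come from RefSeq on GRCm38.p6, run 5′ to 3′ on the gene's own strand and start 250 bases before the RefSeq start. Those of Gpr18, Gpr85 and Gpr65 end at the base before that start. That of Gpr157 holds 112 bases, since the last 138 bases lie within the gene as GENCODE annotates it and are not printed. Capitals mark the only motif match in them.
Gpr18, chr14:121915889-121916138, minus strand: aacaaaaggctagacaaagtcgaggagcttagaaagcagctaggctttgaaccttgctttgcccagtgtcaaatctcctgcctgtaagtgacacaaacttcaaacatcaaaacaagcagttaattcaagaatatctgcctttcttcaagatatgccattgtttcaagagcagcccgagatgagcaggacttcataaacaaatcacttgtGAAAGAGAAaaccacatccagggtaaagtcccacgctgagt
Gpr85, chr6:13839943-13840192, minus strand: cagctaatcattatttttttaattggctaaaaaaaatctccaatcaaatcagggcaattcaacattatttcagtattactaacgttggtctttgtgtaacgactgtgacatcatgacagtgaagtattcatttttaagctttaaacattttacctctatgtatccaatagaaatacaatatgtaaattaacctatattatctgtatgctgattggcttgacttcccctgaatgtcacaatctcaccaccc
Gpr65, chr12:98268385-98268634, plus strand: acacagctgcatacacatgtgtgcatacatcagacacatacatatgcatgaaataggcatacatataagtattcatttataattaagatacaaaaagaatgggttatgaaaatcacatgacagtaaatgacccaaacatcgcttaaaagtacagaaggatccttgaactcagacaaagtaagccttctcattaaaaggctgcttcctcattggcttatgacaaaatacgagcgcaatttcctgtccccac
Gpr157, chr4:150087253-150087364, plus strand: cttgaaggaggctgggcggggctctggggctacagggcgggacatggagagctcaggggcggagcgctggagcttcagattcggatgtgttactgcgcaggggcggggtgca
The search covered windows of 250 bases before to 50 bases after each start, available for 7 of the 8 genes, and read both strands for 6 motifs. GAAANNGAA, a letter pattern of interferon-stimulated response elements, was in 8.56% of all 32851 windows and in 1 of the 7, that of Gpr18, where GAAAGAGAA begins 41 bases before the start. GAGGAAGT, a form of the site of the macrophage factor PU.1, was in 3.20% of all windows and in 1 of the 7, that of Gpr31b, 74 bases before the start. The NF-kB consensus was in 4.51% of all windows, TGANTCA of AP-1 in 7.81%, TTGCNNAA of C/EBP in 10.8% and TGACGTCA, the cAMP response element, in 1.79%, and none of these was in any of the 7 windows. A match is a run of letters and no measure of binding.

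With LPS, 4 of the 8 receptor genes were higher and 2 were lower past an adjusted p of 0.05 (edgeR quasi-likelihood test, Benjamini-Hochberg adjustment), and 2 did not pass. Gene positions are from RefSeq on GRCm38.p6. Over all 9548 genes tested, 6.55% were called higher and 1.79% lower. Both LPS libraries lay on one side of both control libraries for 7 of the 8 genes, against 50.6% of all genes tested. Since the choice of genes used this contrast, nothing is read from these counts. All 8 reached the mean count of 10 over the 4 libraries required for testing, and Gpr34 and Gpr165 were just above it. Gpr18 and Gpr165 averaged under 10 counts in control and passed through the LPS libraries, and Gpr34 averaged under 10 counts with LPS and passed through the control libraries.

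**Figure D1:**
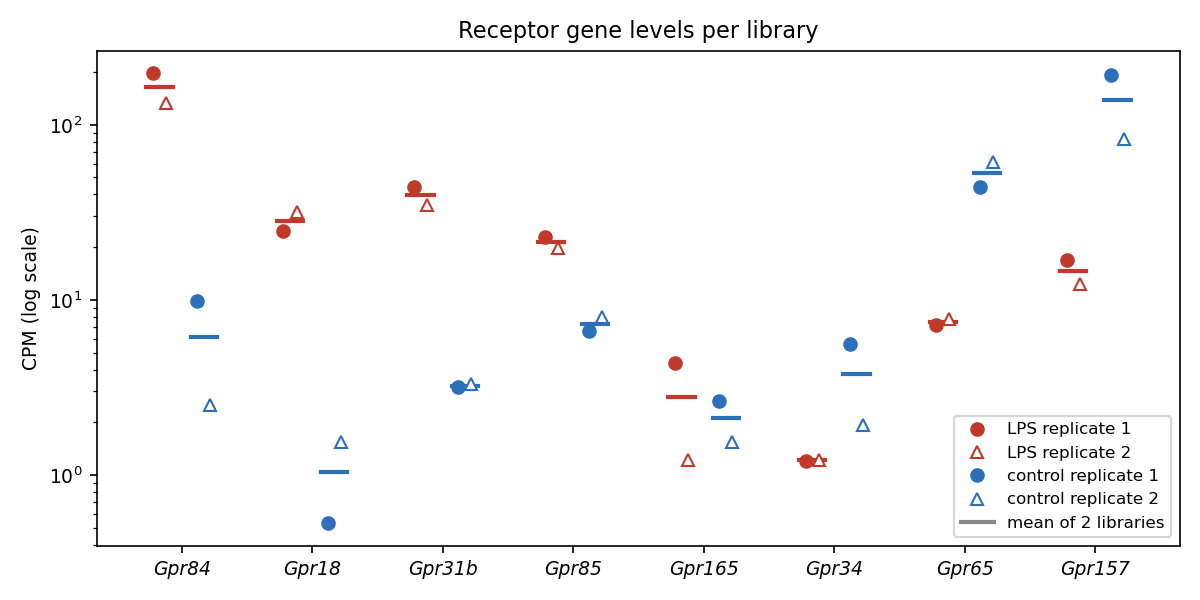
CPM (log scale) of the 8 receptor genes in each library, LPS to the left of control, with a bar at the mean of 2 libraries. Gpr84, Gpr18, Gpr31b and Gpr85 lie higher in both LPS libraries, Gpr34, Gpr65 and Gpr157 lie lower, and the groups overlap for Gpr165.

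Gpr84, a receptor for medium-chain fatty acids found mainly on myeloid cells, had 818 and 552 counts with LPS, against 37 and 13 counts in control. These correspond to 197 and 133 CPM with LPS and to 9.80 and 2.52 CPM in control. The groups were far apart, and the control libraries differed 3.89-fold between themselves. The log2 fold change was 4.79 ± 0.63 (SE, 2 libraries per group), or 27.6-fold, and it was 6.0 without control library 1 and 4.04 without control library 2. Gpr84 (chr15:103308233-103310670, minus strand) overlaps the antisense gene Gm49482, with which its transcript shares 682 bases on the opposite strand. Gm49482 has no entry of its own in the count table, and the strand setting of the counting is not given in the sources used here, so reads of the 2 genes cannot be told apart.

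Gpr18, a receptor reported to respond to N-arachidonyl glycine and resolvin D2, had 103 and 132 counts with LPS, against 2 and 8 counts in control. In CPM it was at 24.8 and 31.9 with LPS and at 0.530 and 1.55 in control, near the limit of detection there. The difference was 25.2-fold, a log2 fold change of 4.66 ± 0.48. It was 3.88 with limma on log2(CPM + 1). Without control library 2 it was 5.64, and the control group then held 2 counts, which gives a ratio of 53.3 with a 95% counting interval of 14.6 to 443. Gpr18 (chr14:121911434-121915888, minus strand) lies within Ubac2 on the opposite strand. Ubac2 had 70 and 35 counts with LPS, against 45 and 40 in control, and did not pass the threshold (log2 fold change 0.37 ± 0.45).

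Gpr31b, the mouse counterpart of human GPR31, which is known in human as a receptor for the lipoxygenase product 12-HETE, had 184 and 144 counts with LPS, against 12 and 17 counts in control. That was 44.3 and 34.8 CPM with LPS and 3.18 and 3.29 CPM in control. This was a 12.1-fold difference, with a log2 fold change of 3.60 ± 0.30. The sequence of Gpr31b (chr17:13051321-13052280, minus strand) is nearly the same as that of 3 other annotated transcripts, Gpr31a (98.5% identical over 960 bases), AC166110.3 (98.5% over 957) and Gm6553 (99.4% over 957). None of the 3 is in the count table, so the level of Gpr31b is uncertain as to which copy gave the reads.

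Gpr85 (chr6:13834406-13839942, minus strand), an orphan receptor known for its expression in brain, had 95 and 82 counts with LPS, against 25 and 41 counts in control. It was at 22.9 and 19.8 CPM with LPS and at 6.62 and 7.94 CPM in control, with no overlap. The log2 fold change was 1.54 ± 0.29, or 2.91-fold, the smallest among the 4 genes that were higher. Its call was lost without any 1 of the 4 libraries (1.44 without LPS library 1, 1.64 without LPS library 2, 1.41 without control library 1 and 1.66 without control library 2) and with scaling by total counts (1.09). Neuronal markers summed to 54.6 and 70.6 CPM with LPS, against 56.9 and 69.0 CPM in control. Most of this sum was Tubb3 and Stmn2, and Stmn2 was at 4.57 and 25.9 CPM with LPS, against 4.24 and 22.7 CPM in control. Map2, Rbfox3, Snap25 and Syt1, listed under several accessions, had at most 3 counts in any library. The part of neurons in the values of Gpr85 was not tested.

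Gpr157 (chr4:150087503-150105927, plus strand), an orphan receptor, was lower, with 70 and 51 counts under LPS against 728 and 428 counts in control. It was at 16.8 and 12.3 CPM with LPS and at 193 and 82.9 CPM in control, so the control libraries differed 2.33-fold while both stood well above the LPS libraries. Gpr157 was thus 9.42-fold lower (log2 fold change -3.24 ± 0.47). This value was -2.52 without control library 1, and the call was lost without LPS library 1 (-3.48) and without LPS library 2 (-3.03). Short stretches of its transcript, at most 205 of 4900 bases, match 439 other genes, and the longest of these matches was 86.8% identical. None of the 439 genes had a match of at least 150 bases at 95% identity or more.

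Gpr65, a proton sensor that raises cAMP in acid surroundings, had 30 and 32 counts with LPS, against 166 and 317 counts in control. In CPM it was at 7.22 and 7.73 with LPS and at 44.0 and 61.4 in control. The log2 fold change was -2.81 ± 0.29, which is 7.04-fold lower, and it lay between -3.27 and -2.58 over the 12 alternative fits. The gene (chr12:98268635-98276722, plus strand) overlaps the antisense gene Gm47566, which shares 191 bases on the opposite strand and has no entry of its own in the count table.

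Gpr34, a receptor for lysophosphatidylserine known as a gene of microglia, had 5 and 5 counts with LPS, against 21 and 10 counts in control. At 1.20 and 1.21 CPM with LPS and 5.56 and 1.94 CPM in control, both LPS libraries were below both control libraries, but the difference did not pass the threshold (log2 fold change -1.57 ± 0.68). It was -0.68 without control library 1, -2.20 without control library 2 and -0.99 with limma. Gpr34 (chrX:13622650-13640859, plus strand) lies within Cask on the opposite strand, which had 0 and 1 counts with LPS and 0 and 0 in control. Cask is listed under several accessions, so its low counts may not show that its RNA was absent. The summed microglial markers were also lower with LPS, at 2080 and 1760 CPM against 3240 and 2480 CPM in control, and their part in the values of Gpr34, Gpr65 and Gpr157 was not tested.

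Gpr165 (chrX:96713468-96719388, plus strand), an orphan receptor, had 18 and 5 counts with LPS, against 10 and 8 counts in control. Its 4.33 and 1.21 CPM with LPS enclosed the 2.65 and 1.55 CPM in control. The log2 fold change of 0.43 ± 0.72 was -0.75 without LPS library 1 and 1.06 without LPS library 2, so no direction was detectable at this depth.

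Divided by exon length, the levels of the genes can be set beside each other. Of the 50 other Gpr genes with too few counts for testing, 9 are listed under several accessions, so their levels may be too low. The 8 receptor genes have 1 accession each, so their ranks may be too high. With LPS, Gpr84 was first among 73 Gpr genes with 95.7 ± 26.0 CPM per kb of exon (SD, n = 2), and it was 11th in control with 3.57 ± 2.98 CPM per kb. Gpr31b was 2nd with LPS (30.8 CPM per kb) and 12th in control (2.52 CPM per kb), and Gpr18 was 5th with LPS (18.9 CPM per kb) and 22nd in control (0.694 CPM per kb). Gpr157 was 13th with LPS (2.98 CPM per kb) and 3rd in control (28.1 CPM per kb), and Gpr65 was 12th with LPS (3.61 CPM per kb) and 4th in control (25.5 CPM per kb). Gpr85 was 8th with LPS (5.22 CPM per kb) and 16th in control (1.78 CPM per kb). Gpr34, 23rd with LPS (0.577 CPM per kb) and 15th in control (1.79 CPM per kb), and Gpr165, 22nd with LPS (0.609 CPM per kb) and 36th in control (0.462 CPM per kb), were low in both groups.

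The order within LPS ran Gpr84, Gpr31b, Gpr18, Gpr85, Gpr65, Gpr157, Gpr165, Gpr34. Only the last pair of neighbours in that order overlapped between libraries, and Gpr65 (3.49 and 3.74 CPM per kb) stood just above Gpr157 (3.44 and 2.52 CPM per kb). The order within control ran Gpr157, Gpr65, Gpr84, Gpr31b, Gpr34, Gpr85, Gpr18, Gpr165. There Gpr157 overlapped Gpr65, Gpr84 overlapped Gpr31b, Gpr31b overlapped Gpr34, Gpr34 overlapped Gpr85 and Gpr18 overlapped Gpr165, while Gpr65 lay above Gpr84 and Gpr85 above Gpr18 in both libraries. The exon length used for Gpr31b, 1283 bases from GENCODE, exceeds its RefSeq span, so its overlap with Gpr34 may depend on the length used.

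**Figure D2:**
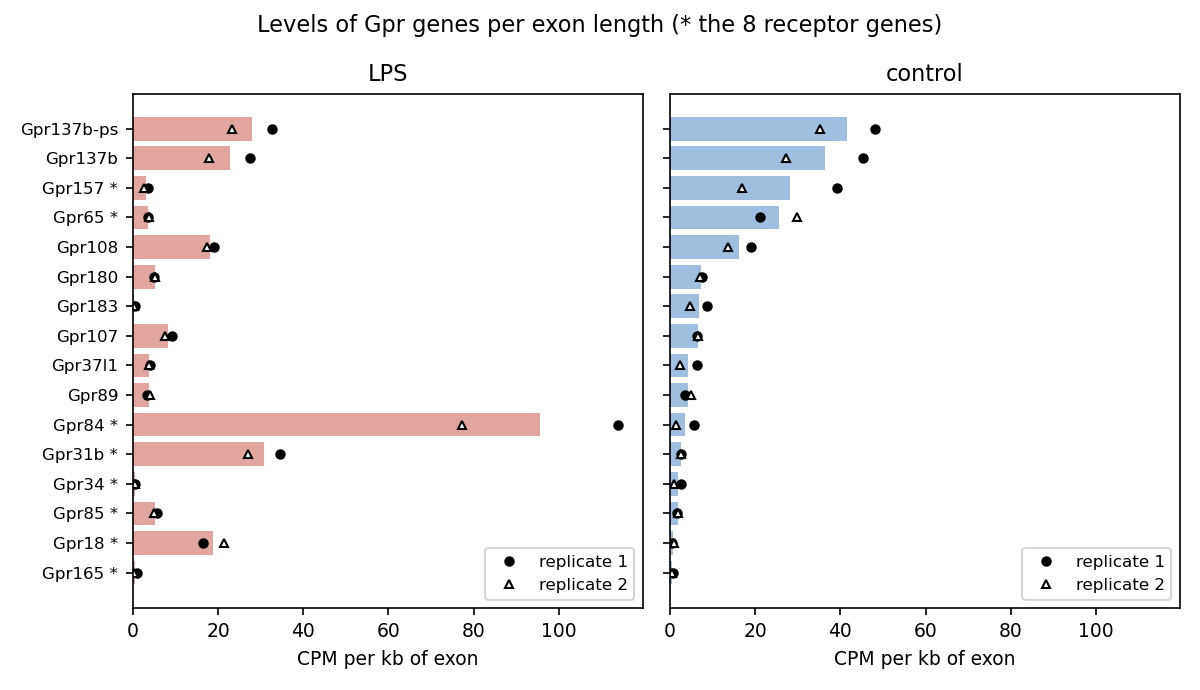
CPM per kb of exon for the 10 Gpr genes highest in control and the 8 receptor genes (starred), LPS on the left and control on the right, with bars at the mean and a point for each library. Gpr84, Gpr31b and Gpr18 reach 95.7, 30.8 and 18.9 CPM per kb with LPS, and Gpr157 and Gpr65 reach 28.1 and 25.5 CPM per kb in control.

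Of the 74 Gpr genes of the table, Gpr52 had no exon length and, with 2 and 1 counts under LPS against 0 and 1 in control, is not in the ranks or sums. The CPM of the other 73 summed to 897 and 705 with LPS, against 1040 and 736 in control, and these ranges overlap. The 8 receptor genes made up 35.5% and 34.4% of that sum with LPS, against 25.5% and 22.2% in control. Within it, the CPM of Gpr84, Gpr18, Gpr31b and Gpr85 summed to 289 and 220 with LPS, against 20.1 and 15.3 in control. The CPM of Gpr157 and Gpr65 summed to 24.1 and 20.1 with LPS, against 237 and 144 in control. These groupings follow the measured direction and are given as a description. Gpr genes listed under several accessions may have lost counts, so the sum over the 73 may be too low and the share of the 8 receptor genes too high.

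Of the 66 other Gpr genes, 16 were tested. Gpr183, a receptor for oxysterols that guides immune cells, was lower, with 7 and 2 counts under LPS against 95 and 70 counts in control (log2 fold change -4.11 ± 0.63, edgeR adjusted p = 0.017). Its call was lost without LPS library 2 (-3.49, edgeR adjusted p = 0.055), and the log2 fold change was -5.24 without LPS library 1 and -3.29 with limma. None of the 16 was called higher by edgeR, DESeq2 or limma or under any other alternative setting, and 0 had an unadjusted p under 0.05 in that direction. The median log2 fold change of the 16 was -0.16, beside -0.05 over all genes tested, but what was left after the choice of the 8 receptor genes is not an independent set. Gpr137b-ps and Gpr137b, first and second in control at 41.6 and 36.3 CPM per kb, did not pass the threshold (-0.57 ± 0.27 and -0.67 ± 0.34), and as a pseudogene and its parent by name they may share reads.

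**Figure D3:**
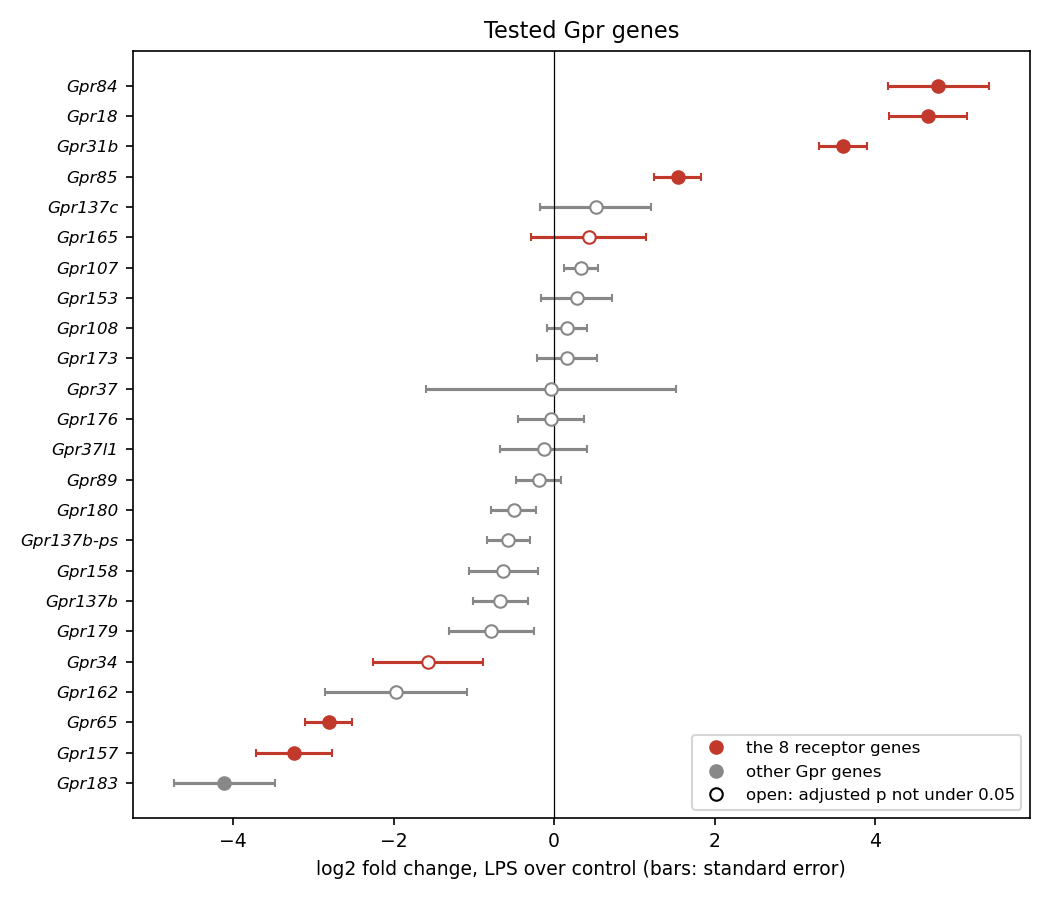
Log2 fold change, LPS over control, with its standard error for every tested Gpr gene, the 8 receptor genes in red and the other 16 in grey, with open points for genes not past an adjusted p of 0.05. Gpr183 is the only filled grey point, at -4.11, below Gpr157 at -3.24.

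Genes near the receptor genes were looked up after the values of the receptor genes had been seen. Gpr18 and Gpr183 lie on the same strand of chromosome 14, 36.8 kb apart, and differed in opposite directions with LPS (4.66 ± 0.48 and -4.11 ± 0.63). Gpr31b lies on chromosome 17, 11.0 kb from Sod2, the mitochondrial superoxide dismutase. Sod2 had 10259 and 7937 counts with LPS, against 637 and 617 counts in control, a log2 fold change of 3.93 ± 0.28 (edgeR adjusted p = 0.0015) beside 3.60 ± 0.30 for Gpr31b. Gpr65 lies 9.2 kb from Galc, which was lower as well (-1.15 ± 0.20, edgeR adjusted p = 0.025). Around Gpr84, Zfp385a at 3.3 kb (-0.29 ± 0.39) and Copz1 at 8.4 kb (0.07 ± 0.19) did not pass the threshold, and Itga5, an integrin chain at 33.7 kb, was higher with 3904 and 2478 counts under LPS against 483 and 524 in control (2.75 ± 0.30, edgeR adjusted p = 0.0052). The nearest tested gene to Gpr85 on chromosome 6, 2610001J05Rik at 27.8 kb, did not pass (0.42 ± 0.25).

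**Figure D4:**
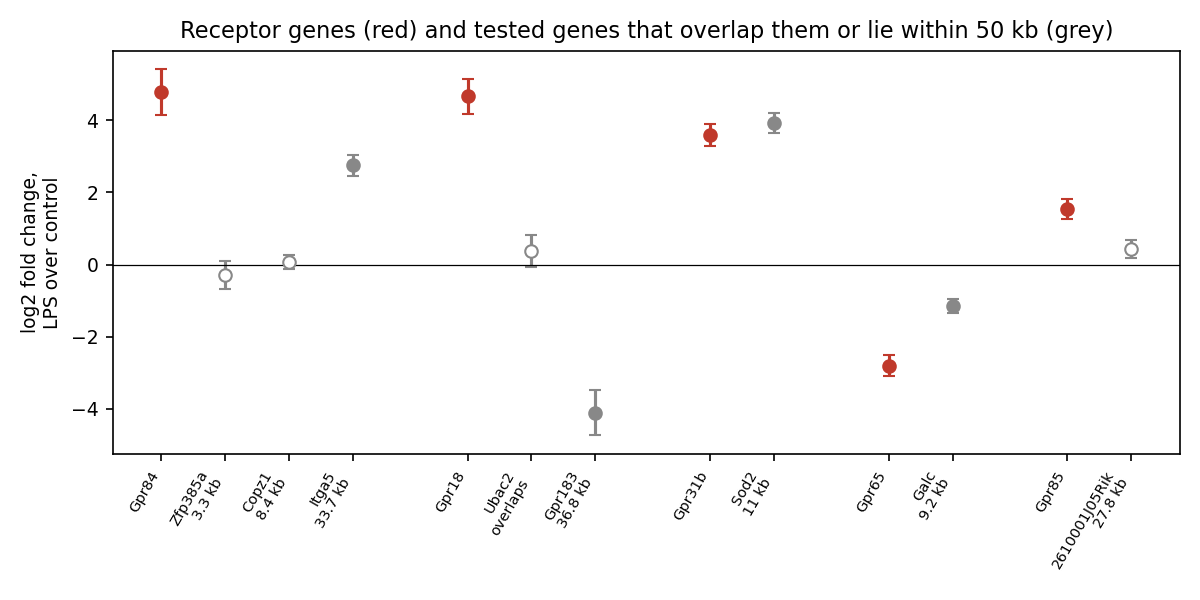
Log2 fold change with its standard error for 5 receptor genes (red) and the tested genes that overlap them or lie within 50 kb (grey, with the distance), open where the adjusted p was not under 0.05. Sod2 stands beside Gpr31b at 3.93 and 3.60, and Gpr183 stands opposite Gpr18 at -4.11 and 4.66.

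The genes whose pattern over the 4 libraries was most like that of the 3 receptor genes with the highest mean CPM were found by the root mean square difference of centred log2 CPM. For Gpr84 these were Bcl2a1a (0.31), Tnfaip2 (0.39) and Oas1g (0.39), of which Bcl2a1a and Oas1g belong to families of close copies and are uncertain. Tnfaip2 had 11001 and 7504 counts with LPS, against 466 and 371 in control. For Gpr157 they were Lyl1 (0.13), Hpgd (0.18) and Cd28 (0.25). Hpgd, the enzyme that inactivates prostaglandins, had 25 and 16 counts with LPS, against 227 and 187 in control. For Gpr65 they were Kctd12b (0.18), Gm5086 (0.19) and Tmem154 (0.19).

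Receptors for fatty acids, lysolipids, bile acids and metabolites with other names held 25 genes, of which 10 were tested. By edgeR with the settings of the methods, 1 was higher and 3 were lower, with a median log2 fold change of -0.02. DESeq2 called 2 higher and 3 lower, and 2 were higher at an unadjusted p under 0.05. With edgeR, 2 were higher and 4 lower when low counts were not filtered, and 4 were higher and 4 lower with replicate number in the model. Hcar2, the receptor for the ketone body beta-hydroxybutyrate and niacin, was higher with 1668 and 1868 counts under LPS, against 29 and 41 in control. Its log2 fold change was 5.76 ± 0.23, or 54.3-fold (edgeR adjusted p = 0.00031). Lpar6, a receptor for lysophosphatidic acid, was lower (-3.24 ± 0.32, edgeR adjusted p = 0.0041), as was S1pr1, a receptor for sphingosine 1-phosphate that had 167 and 238 counts with LPS against 1219 and 1439 in control (-2.62 ± 0.26, edgeR adjusted p = 0.0040). Tpra1, also known as an orphan receptor, was lower (-2.28 ± 0.38, edgeR adjusted p = 0.021), and its call was lost without LPS library 1 (-2.15) and without LPS library 2 (-2.43).

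Of 31 adhesion and class C orphan receptors, 14 were tested, 2 were higher and 0 were lower by edgeR with the settings of the methods, DESeq2 or limma (1 lower at an unadjusted p under 0.05), with a median of 0.06. Of the 17 not tested, 7 are listed under several accessions. The higher genes were Adgrl2, or latrophilin 2 (1.93 ± 0.40, edgeR adjusted p = 0.046), and Adgre1, which encodes the macrophage antigen F4/80 (1.31 ± 0.23, edgeR adjusted p = 0.028). Adgre1 had 5347 and 5129 counts with LPS, against 2267 and 2160 in control. Both calls were lost without LPS library 1 (1.56 for Adgrl2 and 1.28 for Adgre1) and without LPS library 2 (2.22 for Adgrl2 and 1.34 for Adgre1).

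Downstream of the receptors, none of the 16 tested of 28 heterotrimeric G protein subunits was called by edgeR with the settings of the methods, with a median of 0.40. At an unadjusted p under 0.05, 3 of them were higher and 1 was lower, DESeq2 called 1 higher and 1 lower, and limma called 1 higher. Other edgeR settings called some as well, with 2 higher and 1 lower when low counts were not filtered, 1 higher and 1 lower at a mean count of at least 50, 1 lower with scaling by total counts, 2 higher without control library 1 and 1 lower without control library 2. Among the 12 subunits not tested, 7 are listed under several accessions, so their low counts may not show low RNA. Over all genes, 88.3% of those with several accessions had too few counts for testing, against 53.5% of those with 1. Of 33 genes of cAMP synthesis, breakdown and sensing, 17 were tested, 1 was higher and 1 was lower, with a median of -0.12. Of the 16 not tested, 15 are listed under several accessions, as is Pde4b, so the level of Pde4b is uncertain. The higher and the lower gene both encode phosphodiesterases, which break down cyclic nucleotides. Pde4b was higher with 40 and 34 counts under LPS against 6 and 11 in control (2.23 ± 0.40, edgeR adjusted p = 0.029), and Pde3b was lower with 251 and 236 counts under LPS against 725 and 843 in control (-1.60 ± 0.20, edgeR adjusted p = 0.0094). The call of Pde4b was lost without LPS library 1 (2.11), LPS library 2 (2.34), control library 1 (2.04) or control library 2 (2.44) and with scaling by total counts (1.78). That of Pde3b was lost without LPS library 1 (-1.64) and without LPS library 2 (-1.56).

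Among 25 receptor kinases, arrestins and Rgs proteins, 13 were not tested, and 10 of these are listed under several accessions. Their low counts may not show low RNA. The other 12 were tested and 2 were lower, with a median of 0.20. None was called higher by edgeR with the settings of the methods or by limma, while DESeq2 called 1 and 1 had an unadjusted p under 0.05. With edgeR, 1 was called higher without control library 2 and 1 when low counts were not filtered. Rgs2, which acts on Gq, had 126 and 174 counts with LPS, against 1710 and 1431 in control (-3.33 ± 0.34, edgeR adjusted p = 0.0044). Rgs10, which acts on Gi and is abundant in microglia, was lower (-1.55 ± 0.22, edgeR adjusted p = 0.012), and its call was lost without LPS library 1 (-1.70) and without LPS library 2 (-1.41).

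Of 22 genes that supply or remove reported ligands of the receptor genes, 8 were not tested, and 4 of these are listed under several accessions. The other 14 were tested and 2 were lower, with a median of 0.19. None was called higher by edgeR with the settings of the methods, DESeq2 or limma, and 1 had an unadjusted p under 0.05 in that direction. Without the filter on low counts edgeR called 1 higher. Galc, the lysosomal enzyme that breaks down galactosylceramide and psychosine, a lipid reported to act on Gpr65, had 319 and 292 counts with LPS, against 655 and 787 in control. Acadm, which starts the breakdown of medium-chain fatty acids, the ligands of Gpr84, had 131 and 153 counts with LPS, against 270 and 411 in control (-1.14 ± 0.22, edgeR adjusted p = 0.035). Both calls were lost without LPS library 1 (-1.21 for Galc and -1.03 for Acadm) and without LPS library 2 (-1.09 for Galc and -1.26 for Acadm), that of Galc also without control library 1 (-1.06) and that of Acadm also without control library 2 (-1.09).

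**Figure D5:**
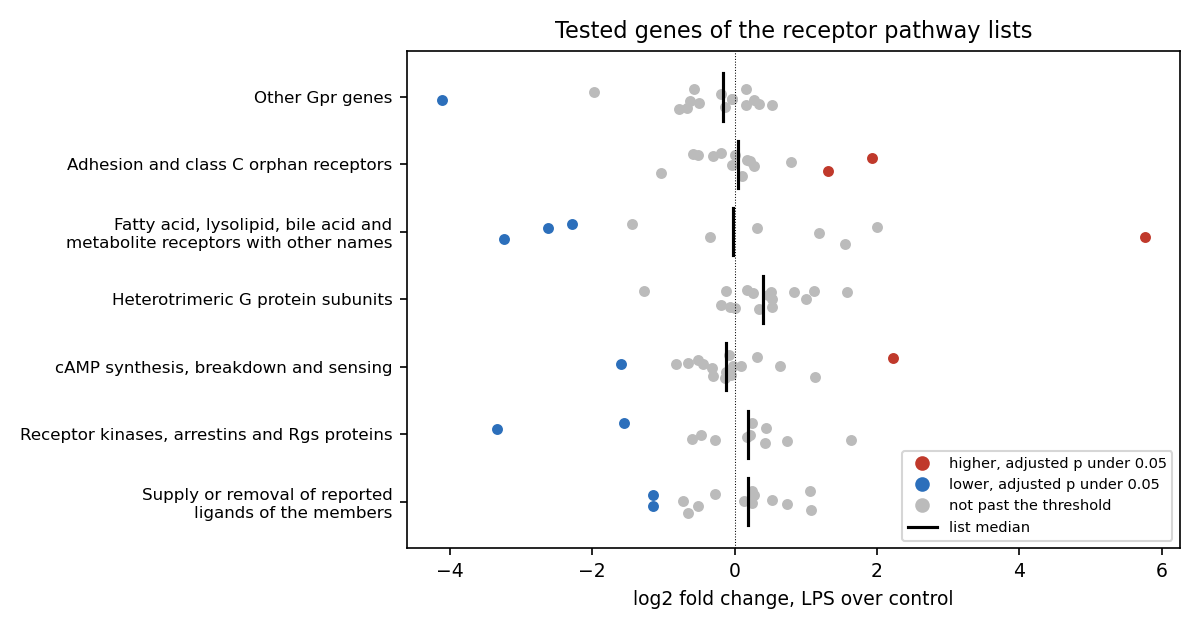
Log2 fold change, LPS over control, of every tested gene of 7 lists of receptors and their partners, with the list median as a black bar. Hcar2 stands at 5.76 and Gpr183 at -4.11, and the medians lie between -0.16 and 0.40.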

How the data were processed

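RNA from cultured primary mouse microglia was sequenced as paired, directional libraries after removal of ribosomal RNA, per the labels' protocols. The deposited table gives whole-number counts per RefSeq accession for 2 LPS and 2 control libraries. The submitters call it normalized, but the values show no gap among low whole numbers and unequal totals, and were treated as raw counts. Per the submitters' processing notes, build mm10 was used with HTSeq 0.6.1, TopHat2 2.0.10, Cufflinks 2.2.1, Trimmomatic 0.33 and CASAVA 1.8.2. Not given in the sources used here are the counting mode, strand setting and annotation. Of 32915 accessions, 32487 were named from RefSeq GRCm38.p6 and 187 from GENCODE; 241 had no name, took 20.1% to 24.9% of the counts and stayed in the library totals. Counts were summed to 24148 genes, an accession without a name counting as 1. All 8 receptor genes have 1 accession each.

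Genes averaging at least 10 counts were tested with edgeR 4.0.16 (R 4.3.3; TMM scaling, quasi-likelihood test, two-sided, Benjamini-Hochberg over 9548 genes, threshold 0.05). Levels are CPM on TMM-scaled totals with the SD over 2 libraries, and levels per kb use exon lengths from GENCODE vM21. Counting intervals (95%) cover counting error only. Alternatives were DESeq2 1.42.0, limma 3.58.1 on log2(CPM + 1), other scalings and filters, the most abundant accession per gene, each library left out and a replicate block. Transcripts were compared with blastn 2.17.0, and matches of at least 150 bases and 95% identity were kept.

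The receptor genes and the lists were chosen with earlier results of these data known. Named beside the receptor genes are up to 3 called genes with the largest increase and 3 with the largest decrease per list, called genes among the other Gpr genes, and the 3 genes most like each of 3 receptor genes; neighbouring genes were added after values were seen.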

Additional observations from a re-analysis of the deposited data

How the results depend on the processing

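With 2 libraries per group, calls depended on single libraries. Leaving out 1 library, where the lone library left in a group is assumed to vary like the others, gave 335 to 629 genes higher and 33 to 260 lower, against 625 and 171 with all 4. Over the 99 tested genes of the lists it gave 1 to 7 higher and 3 to 10 lower, against 4 and 9. For the receptor genes it gave 3 higher each time, against 4, and 1 to 2 lower, against 2. DESeq2 called 7 listed genes higher, and with no filter on low counts 9 were. Scaling by total counts called 489 genes lower. It moved the median log2 fold change to -0.48, against -0.05, and the share of calls that were higher to 49.0%, against 78.5%. Replicate numbers were not taken as pairs: deviations of same-numbered libraries correlated at 0.656 over 9548 genes, a hint from the data, with only 2 pairs. With the replicate block, 1676 genes were higher and 1258 lower, 18 listed genes were higher and 19 lower, and Gpr34 was called lower. With the block, 6 G protein subunits were higher and 1 lower, 2 receptor kinases, arrestins or Rgs proteins were higher, 2 genes of ligand supply or removal were higher, 1 adhesion or class C receptor was lower and 4 other Gpr genes were lower. Of 166 alternative values for the 14 tested named genes, 144 kept their direction and side of the threshold, 22 lost the threshold and 0 reversed. The causes were not tested. The 14 genes did not include Itga5. Depth limits Gpr34 and Gpr165 most, at 5 to 21 counts per library; DESeq2 gave no adjusted p for either.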
